A study of Mus musculus with 101 samples.

Results

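The genes described here are the 10 transcription factor genes that build and maintain fat cell identity: Pparg, Cebpa, Cebpb, Cebpd, Rxra, Klf15, Nr1h3, Ebf1, Ebf2 and Zfp423. They were taken by symbol, and all 10 were found among the 24475 genes of the deposited tables. RNA from adipose tissue of male C57BL/6NTac mice was sequenced in 101 libraries that fall into 12 groups. In the first experiment, wild-type mice on chow carried an AAV8 vector for mouse Inhbe (mInhbe) or for GFP in the liver, and subcutaneous and epididymal fat were taken from 10 mInhbe and 10 GFP animals per depot. In the second, Inhbe knockout (KO) and wild-type (WT) mice without vector were fed a high-fat diet (HFD) or chow. It holds 8 KO HFD, 8 WT HFD, 7 KO chow and 8 WT chow libraries of epididymal fat, and 8 KO HFD, 7 WT HFD, 7 KO chow and 8 WT chow libraries of subcutaneous fat. The labels give neither the vector's promoter, nor how the knockout allele was made, nor the ages of the mice, and they do not say whether both depots came from the same animals. The series' text gives 8 animals for WT HFD, of which 7 subcutaneous libraries were analysed here. Inhbe encodes the subunit of activin E, a hepatokine of the TGF-beta family, and the comparisons ask what an excess or a lack of it does to fat tissue.

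Fat cell formation is a transcriptional cascade. C/EBP-beta and C/EBP-delta act early and induce PPAR-gamma and C/EBP-alpha, which then sustain each other's expression and together switch on the lipid handling genes of the mature cell. PPAR-gamma binds DNA as a heterodimer with RXR-alpha, the partner that LXR-alpha (Nr1h3) also uses. ZFP423 commits progenitors to the lineage, EBF1 promotes Pparg and Cebpa expression, EBF2 marks preadipocytes with brown and beige potential, and KLF15 raises Pparg expression and controls glucose transport and amino acid catabolism.

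The gene bodies lie on several chromosomes of the mouse genome (GRCm38.p6), with Klf15 at chr6:90461043-90491803, Pparg at chr6:115360879-115490404 and Cebpa at chr7:35119293-35121928. Promoters are shown for these 3 genes because Klf15 gave the largest differences between KO and WT on HFD and the other 2 are the core pair of the cascade. RefSeq promoter sequences matched 8 of the 10 genes, at 14 annotated start sites, with none for Cebpd and Ebf2. The 250 bases before the start are given, each on the plus strand of GRCm38.p6, with capitals on a CCAAT box, a TATA box (TATAAA), a GC box (GGGCGG) or an E-box (CACGTG) on either strand. The stretches are chr6:90462326-90462575 for Klf15, chr7:35119043-35119292 for Cebpa and chr6:115421816-115422065 for the third annotated start of Pparg, which is that of the fat-restricted isoform.
Klf15: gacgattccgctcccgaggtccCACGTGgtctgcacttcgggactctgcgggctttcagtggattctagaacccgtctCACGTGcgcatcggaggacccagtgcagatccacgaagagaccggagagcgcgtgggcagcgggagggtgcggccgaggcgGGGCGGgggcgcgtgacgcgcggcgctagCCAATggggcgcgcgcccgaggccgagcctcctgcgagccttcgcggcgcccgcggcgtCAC
Cebpa: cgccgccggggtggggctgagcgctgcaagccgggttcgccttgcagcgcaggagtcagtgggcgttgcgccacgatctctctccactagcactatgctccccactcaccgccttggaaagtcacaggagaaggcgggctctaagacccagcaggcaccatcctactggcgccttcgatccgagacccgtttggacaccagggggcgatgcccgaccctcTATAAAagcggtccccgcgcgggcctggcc
Pparg: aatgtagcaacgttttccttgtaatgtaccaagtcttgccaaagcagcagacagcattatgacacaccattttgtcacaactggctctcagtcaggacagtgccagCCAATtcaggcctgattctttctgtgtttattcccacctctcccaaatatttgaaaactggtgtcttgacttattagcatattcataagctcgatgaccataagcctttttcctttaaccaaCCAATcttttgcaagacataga

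The 3 windows differed in their core elements. Motifs were searched on both strands from 250 bases before to 50 bases after each start. The Klf15 window held a CCAAT box 62 bases and a GC box 91 bases before the start, and 3 E-boxes that begin 228, 172 and 3 bases before it, the last running across the start. An E-box was present in 7.15% of all 32851 promoter windows, a GC box in 35.7% and a CCAAT box in 37.4%. The Cebpa window held a TATA box 30 bases before the start, which 13.6% of windows have. The Pparg window held 2 CCAAT boxes, 144 and 22 bases before the start. The SMAD box GTCT, the core that activin and TGF-beta effectors recognise, occurred 3 times in the Klf15, 2 times in the Cebpa and 5 times in the Pparg window, but 88.0% of all windows hold at least 1. The longer SMAD motif CAGACA, which 21.0% of windows hold, was found in the Pparg window, 203 bases before the start. It contains the shorter SMAD core on the opposite strand, so the same letters are counted under both. The nuclear receptor element AGGTCA, which 16.3% of windows hold, was in none of the 3. The C/EBP palindrome TTGCGCAA and the cAMP response element TGACGTCA, which 0.183% and 1.79% of windows hold, were not found in these 3 windows either. These matches are descriptions of the letters and say nothing about binding.

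All 10 genes were well detected. Library totals ran between 12970509 and 20170746 estimated counts, and 3 counts, the smallest level treated as detected, correspond to 0.149 to 0.231 CPM, the count scaled to a library total of 1000000. The markers of fat cells were present in every group, with a summed level of 7855 to 37196 CPM per library. Inhbe itself was read in all mInhbe libraries, at 2.42 to 46.0 CPM in subcutaneous fat, and at 0 in all GFP libraries. In the KO experiment it was at or near 0 in KO and WT fat alike and checks nothing about the genotype. Most subcutaneous libraries carried lymph node transcripts and many epididymal ones carried epididymis transcripts. Some libraries stood apart in the genes described here, above all WT HFD subcutaneous library 6, KO HFD epididymal library 4 and GFP subcutaneous library 2, and values without them are given beside several of the results. WT HFD epididymal libraries 4 and 5 carried liver transcripts, with Alb at 814 and 3261 CPM.

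Per kilobase of exon, Cebpa had the highest level of the 10, with group means of 122 to 352 CPM per kb. Pparg followed at 40.0 to 65.9 CPM per kb and Rxra at 24.3 to 48.5 CPM per kb. Nr1h3 (19.1 to 34.3 CPM per kb), Ebf1 (11.3 to 26.5 CPM per kb) and Klf15 (7.00 to 29.6 CPM per kb) lay below them, with overlapping ranges. Cebpb, Zfp423, Ebf2 and Cebpd were lowest by the median over groups, with group means of at most 20.4 CPM per kb. Their ranges overlapped that of Klf15. In WT HFD epididymal fat Cebpb, at 16.9 CPM per kb, lay above Ebf1 at 11.3 and Klf15 at 7.00. The order of Cebpd is uncertain, because the exon length used for it, 3.75 kb, is longer than its RefSeq gene span at chr16:15887286-15889545. Gene-level counts do not separate the Pparg isoforms.

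Klf15 was the gene whose level differed most between the groups, with the highest group mean 4.23 times the lowest. Its highest mean, 82.7 CPM in GFP subcutaneous fat, and its lowest, 19.5 CPM in WT HFD epididymal fat, came from separate experiments. In the KO experiment its mean level was 78.7 ± 9.10 CPM (SD, n = 7) in KO chow and 63.2 ± 16.0 CPM (n = 8) in WT chow subcutaneous fat. It was 66.7 ± 9.31 CPM (n = 7) in KO chow and 55.9 ± 7.81 CPM (n = 8) in WT chow epididymal fat. On HFD it was 59.8 ± 2.34 CPM (n = 8) in KO and 29.7 ± 8.02 CPM (n = 7) in WT subcutaneous fat, and 47.7 ± 3.94 CPM (n = 8) in KO and 19.5 ± 4.53 CPM (n = 8) in WT epididymal fat. Both WT HFD groups were at the bottom of this order. KO HFD subcutaneous fat lay among the chow groups, and KO HFD epididymal fat lay below all 4 chow groups and above both WT HFD groups. The library ranges overlapped between all 7 pairs of neighbouring groups. Cebpd was the most variable gene within groups, with a median coefficient of variation of 42.2%.

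**Figure D1:**
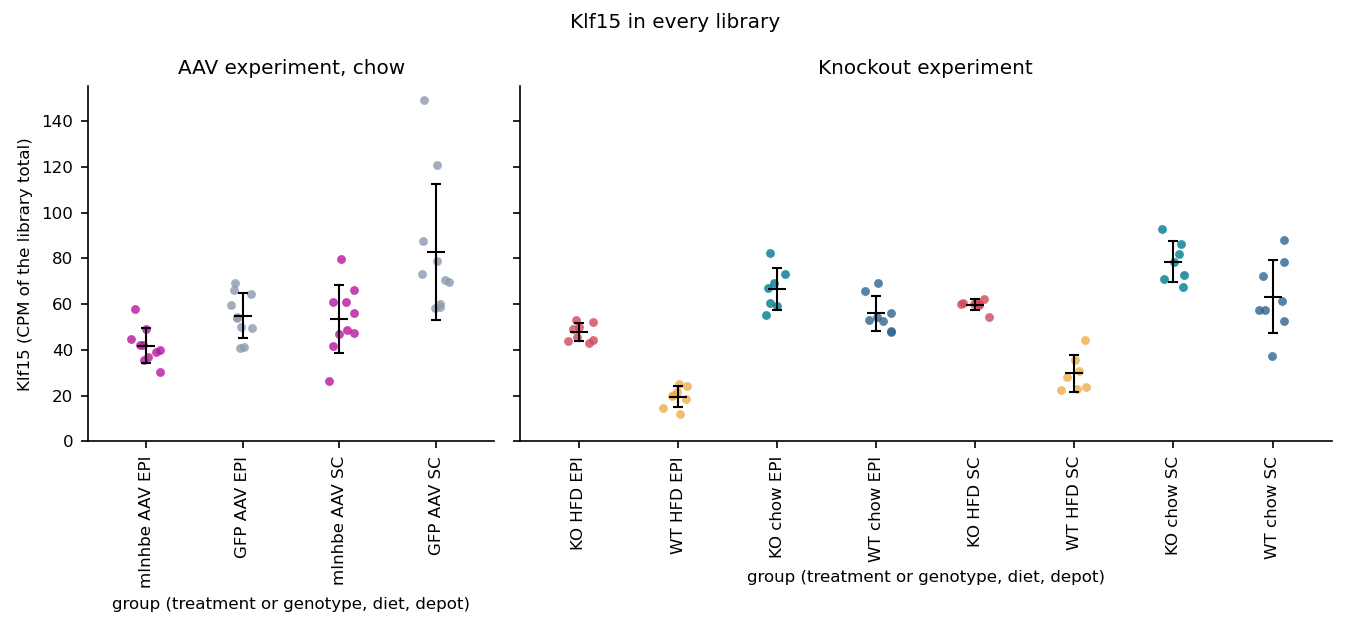
Klf15 level in every library, in CPM of the library total, for the 12 groups of both experiments (EPI, epididymal; SC, subcutaneous). Each point is 1 library and the bars give the group mean ± SD. The KO HFD libraries lie at 42.9 to 53.2 CPM in epididymal and 54.4 to 62.4 CPM in subcutaneous fat, above all WT HFD libraries of the same depot.

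In epididymal fat on HFD, 6 of the 10 factors rose in KO mice relative to WT and none fell. Klf15 rose most, followed by Cebpa, Nr1h3, Ebf2, Pparg and Zfp423. Of all genes tested in this comparison, 37.2% changed, 17% higher and 20.2% lower (edgeR's quasi-likelihood test, adjusted p under 0.05 over all genes tested, here and below). The median log2 difference was 0.45 over the 10 factors and 0.01 over all genes. In bulk tissue, fewer fat cells and less RNA of a gene per fat cell cannot be told apart.

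Klf15 had 42.9 CPM in the lowest, 47.4 CPM in the median and 53.2 CPM in the highest KO HFD epididymal library, against 12.0, 20.1 and 25.2 CPM in the WT HFD libraries. The 2 groups did not overlap. The log2 difference was 1.47 ± 0.13 (SE), a 2.77-fold higher level in KO fat (edgeR adjusted p = 7.24e-10). Cebpa, the factor that terminates proliferation and fixes the mature state, had 363, 501 and 727 CPM as lowest, median and highest KO HFD values, against 265, 322 and 370 CPM in WT HFD. All but 1 of the KO libraries lay above every WT library, and the log2 difference was 0.80 ± 0.16 (edgeR adjusted p = 0.000183). Pparg, the master regulator of the lineage, had 110, 151 and 159 CPM in KO HFD, against 94.3, 119 and 143 CPM in WT HFD. Its groups overlapped, with 5 of 8 KO libraries above all WT libraries and a log2 difference of 0.47 ± 0.15 (edgeR adjusted p = 0.0137).

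Nr1h3, the oxysterol receptor that drives cholesterol efflux and lipogenic genes, had 65.0, 85.2 and 135 CPM as lowest, median and highest KO HFD epididymal values, against 47.1, 68.1 and 73.5 CPM in WT HFD. It rose by 0.62 ± 0.16 on the log2 scale (edgeR adjusted p = 0.00233), with 5 of 8 KO libraries above all WT libraries. Ebf2 had 16.9, 43.9 and 50.2 CPM in KO HFD, against 19.7, 32.1 and 35.7 CPM in WT HFD, and rose by 0.51 ± 0.19 (edgeR adjusted p = 0.0367). The lowest Ebf2 values came from KO HFD library 4 and WT HFD library 3, and KO HFD library 8 was also low, at 21.8 CPM. Zfp423 had 34.3, 44.3 and 60.0 CPM in KO HFD, against 26.1, 40.6 and 52.2 CPM in WT HFD, with a log2 difference of 0.37 ± 0.15 close to the threshold (edgeR adjusted p = 0.0489). The other 4 factors did not pass: Ebf1 differed by 0.43 ± 0.20 (edgeR adjusted p = 0.098), Rxra by 0.23 ± 0.14, Cebpb by -0.08 ± 0.15 and Cebpd by -0.02 ± 0.29 on the log2 scale.

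Leaving out KO HFD library 4 and WT HFD library 3 left 6 factors called, with Ebf1 joining at 0.43 (edgeR adjusted p = 0.021) and Zfp423 leaving at 0.32 (edgeR adjusted p = 0.052). Without WT HFD libraries 4 and 5, the pair with liver transcripts, 4 factors were called, and Ebf2 at 0.53 (edgeR adjusted p = 0.0623) and Zfp423 at 0.33 (edgeR adjusted p = 0.11) were not. With the macrophage score as a covariate, an alternative chosen after the data were seen, Klf15, Cebpa, Nr1h3, Zfp423 and Rxra were called and Pparg (0.66, edgeR adjusted p = 0.201) and Ebf2 (0.69, edgeR adjusted p = 0.279) were not. The macrophage sum does not overlap between KO HFD and WT HFD libraries, so genotype and macrophage content cannot be told apart in that fit. Scaling matters here, because the normalisation factors of KO HFD fat were low. When library totals replaced the trimmed mean of M values (TMM), the median of all genes moved by -0.17 and only Klf15, Cebpa and Nr1h3 remained called. Fat cell markers moved with these factors: 11 of 12 rose in KO HFD epididymal fat and none fell, and their summed level was 21937 to 27068 CPM in KO HFD libraries, against 7855 to 13985 CPM in WT HFD libraries. Macrophage markers moved the other way, with 0 higher and 11 lower of 12 and a summed level of 1206 to 2791 CPM in KO HFD, against 6030 to 8422 CPM in WT HFD. Progenitor markers fell for 5 of 12, and brown fat markers rose for 6 of 8. The part of these cell types in the differences was not tested.

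In subcutaneous fat on HFD, Klf15 alone passed the test among the 10 factors, against a background of 18.9% of all genes (7.32% higher and 11.6% lower). It had 54.4, 60.1 and 62.4 CPM as lowest, median and highest KO HFD values, against 22.5, 28.0 and 44.3 CPM in WT HFD. The groups did not overlap, and the log2 difference was 1.16 ± 0.16, 2.24-fold (edgeR adjusted p = 4.82e-06). The highest WT value, 44.3 CPM, belonged to library 6, which also had the highest Cebpa, Rxra and Nr1h3 levels of its group. Without it and KO HFD library 2, the Klf15 difference was 1.27 and Cebpa was called too, at 0.38 (edgeR adjusted p = 0.0444). Pparg had 135, 172 and 190 CPM in KO HFD, against 114, 185 and 191 CPM in WT HFD, and Cebpa had 427, 504 and 567 CPM, against 373, 397 and 783 CPM. Their log2 differences, 0.14 ± 0.15 and 0.23 ± 0.16, did not pass.

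Ebf2 at 0.55 ± 0.20 (edgeR adjusted p = 0.0559), Rxra at -0.39 ± 0.14 (edgeR adjusted p = 0.0575) and Cebpd at -0.71 ± 0.31 (edgeR adjusted p = 0.105) were near the threshold in subcutaneous fat. Ebf2 was called at 0.91 without the 4 libraries low in lymph node transcripts (edgeR adjusted p = 0.00359). With library totals in place of TMM, Rxra (-0.53) and Cebpd (-0.88) were called lower beside Klf15, and the median of all genes moved by -0.16. The fat cell markers summed to 22822 to 27114 CPM in KO HFD, against 18372 to 23011 CPM in WT HFD subcutaneous libraries, with 4 of 12 higher and 1 lower. The macrophage markers summed to 531 to 693 CPM in KO HFD, against 993 to 2029 CPM in WT HFD, with 9 of 12 lower. Brown fat markers summed to 90.2 to 160 CPM in KO HFD, against 38.9 to 66.0 CPM in WT HFD, with 5 of 8 higher, and endothelial markers to 692 to 889 CPM, against 795 to 1516 CPM, with 5 of 8 lower. The part of these cell types in the Klf15 difference was not tested.

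**Figure D2:**
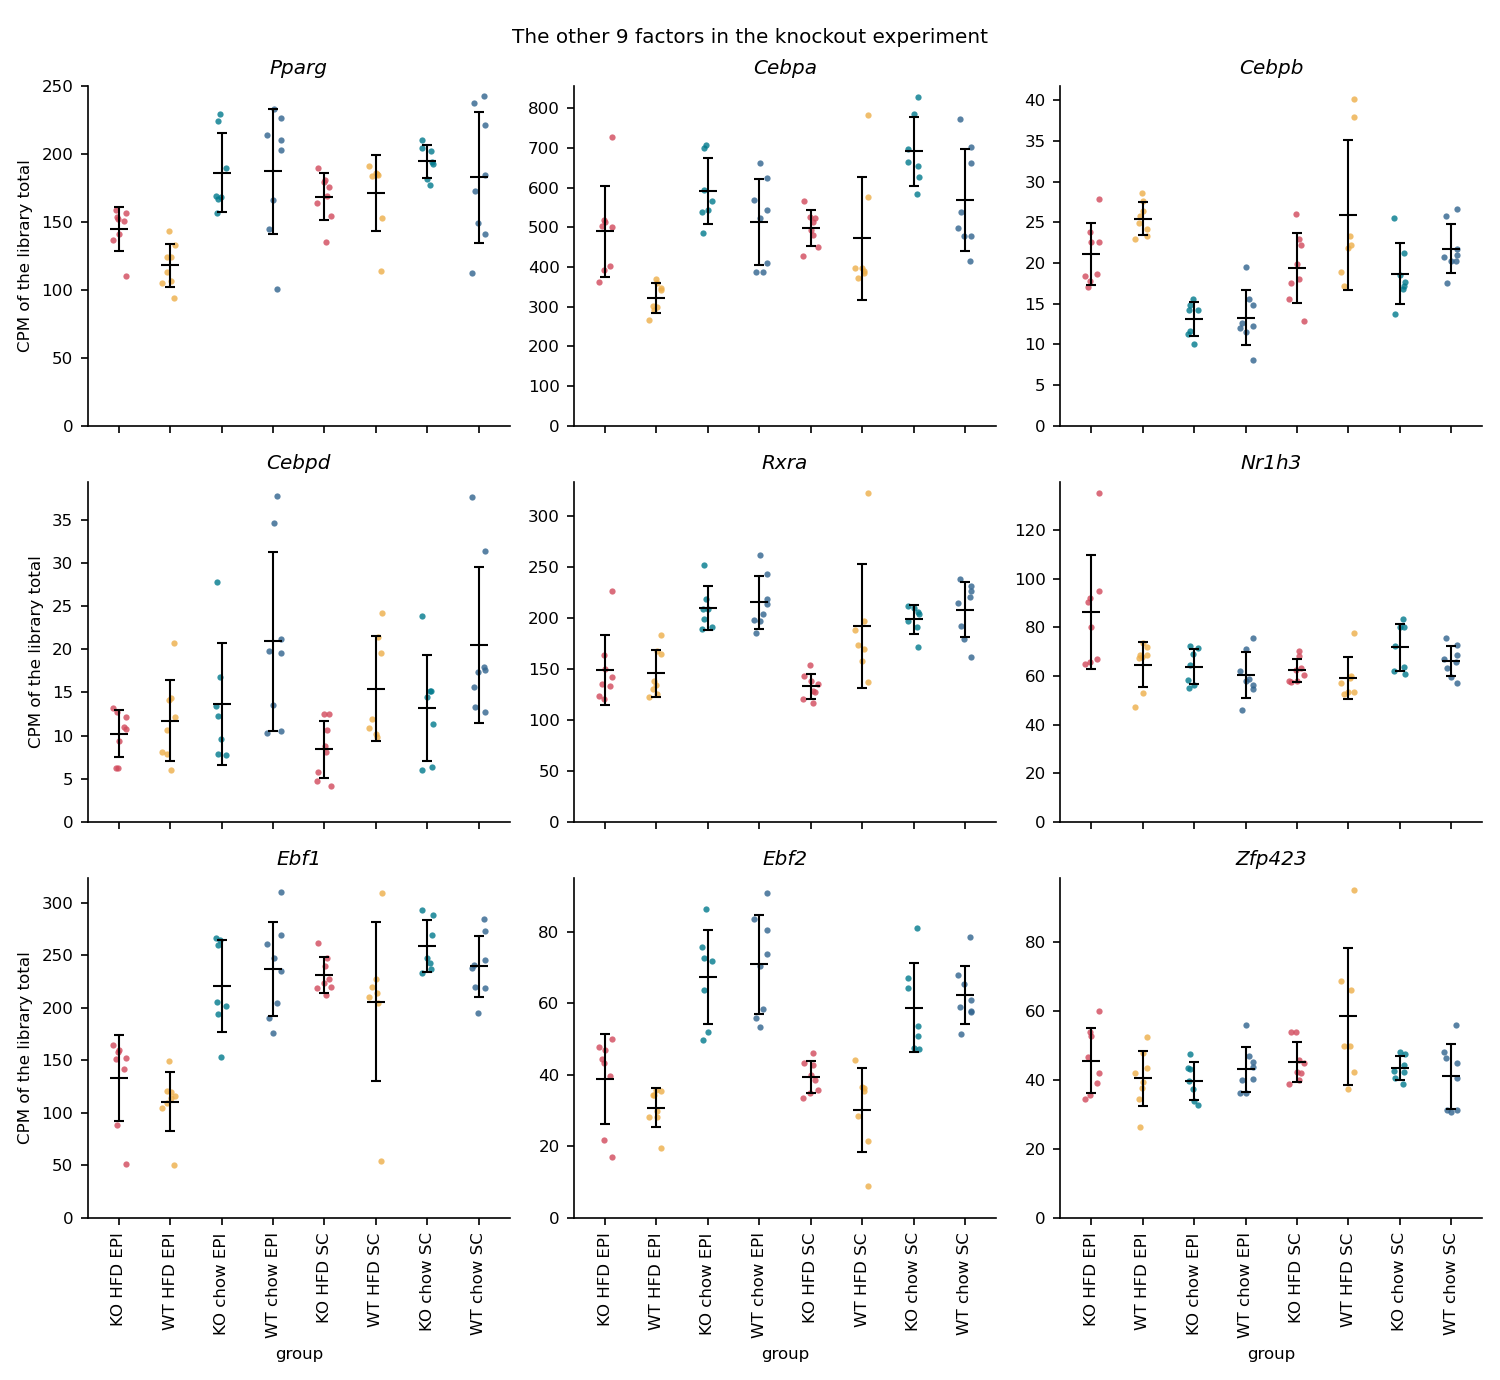
Levels of the other 9 factors in the KO experiment, in CPM of the library total, 1 panel per gene with its own axis. Each point is 1 library and the bars give the group mean ± SD. EPI is epididymal and SC subcutaneous. In EPI all but 1 of the KO HFD libraries lie above every WT HFD library for Cebpa, while for Cebpb and Cebpd the KO HFD and WT HFD libraries overlap in both depots.

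The difference between KO and WT in Klf15 depended on diet in epididymal fat. The genotype by diet interaction was 1.18 ± 0.19 on the log2 scale (edgeR adjusted p = 6.13e-05), and Klf15 was the 1 factor of 10 called, against 16.5% of all genes. The same term was 0.78 ± 0.22 in subcutaneous fat (edgeR adjusted p = 0.0591), where 2.14% of all genes were called and 0 of the 10 factors. Among the factors 1 had an unadjusted p under 0.05 there, as did 2076 of all 14220 genes tested, and DESeq2 called 1. With library totals as the scale, the subcutaneous term for Klf15 was 0.69 (edgeR adjusted p = 0.043), and with KO HFD library 2 and library 6 of WT HFD left out it was 0.90 (edgeR adjusted p = 0.0143). In epididymal fat, Cebpa (0.57 ± 0.23), Nr1h3 (0.51 ± 0.23), Pparg (0.46 ± 0.22) and Zfp423 (0.45 ± 0.21) had unadjusted p under 0.05 for the interaction but did not pass after adjustment. Of all 15042 genes tested, 4163 had an unadjusted p under 0.05 for that term.

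On chow, none of the 10 factors passed the test between KO and WT in either depot. The background was low, at 0.253% of all genes in subcutaneous and 0.658% in epididymal fat, and DESeq2 called none of the 10 either. Klf15 was 0.38 ± 0.16 higher on the log2 scale in KO chow subcutaneous fat (edgeR adjusted p = 0.548) and 0.29 ± 0.13 higher in KO chow epididymal fat (edgeR adjusted p = 0.769). Every KO chow subcutaneous library had more Klf15 than the WT chow mean, 67.4 to 92.9 CPM against 37.1 to 88.1 CPM, yet the ranges overlapped. Cebpa differed by 0.37 ± 0.16 in subcutaneous fat and had, with Klf15, an unadjusted p under 0.05. In epididymal fat Klf15 was the only such factor. Of all genes tested, 951 of 14220 in subcutaneous and 921 of 15042 in epididymal fat had an unadjusted p under 0.05.

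**Figure D3:**
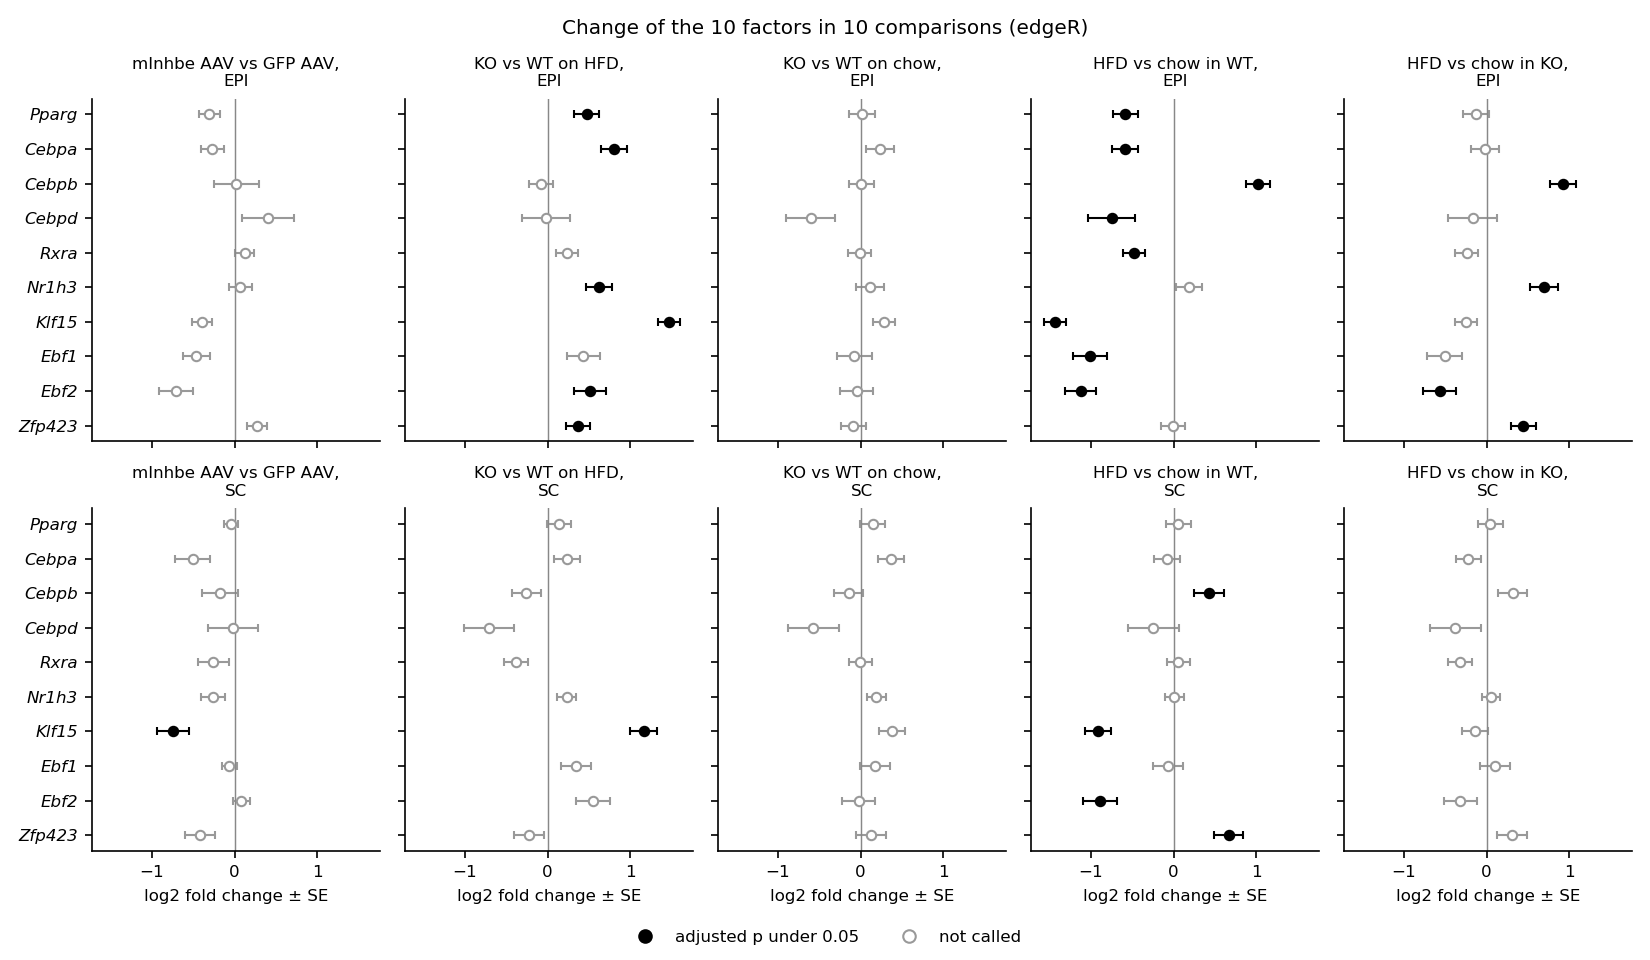
Log2 difference of each factor with its standard error, as mInhbe minus GFP, KO minus WT and HFD minus chow within each depot. Filled points passed the adjusted threshold of 0.05. Klf15 is below 0 with mInhbe and with HFD in WT mice, and above 0 in KO mice on HFD.

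Feeding WT mice the high-fat diet moved most of these genes in epididymal fat, where 7 of the 10 factors fell and 1 rose, against 54.1% of all genes changed, 28.9% higher and 25.2% lower. Klf15 had 12.0, 20.1 and 25.2 CPM as lowest, median and highest WT HFD values, against 47.7, 53.8 and 69.3 CPM in WT chow, and fell by 1.43 ± 0.13 on the log2 scale (edgeR adjusted p = 2.12e-10). Ebf2 had 19.7, 32.1 and 35.7 CPM in WT HFD, against 53.5, 72.2 and 91.0 CPM in WT chow, and fell by 1.13 ± 0.19 (edgeR adjusted p = 1.28e-05). Ebf1 had 50.5, 115 and 150 CPM in WT HFD, against 176, 241 and 311 CPM in WT chow, and fell by 1.02 ± 0.21 (edgeR adjusted p = 0.000119). For these 3 genes the WT HFD and WT chow libraries did not overlap. Pparg and Cebpa both fell by 0.59 (SE 0.15 and 0.16), Rxra by 0.48 ± 0.14 and Cebpd by 0.75 ± 0.29.

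Cebpb went the other way. It had 22.9, 25.3 and 28.6 CPM in WT HFD epididymal libraries, against 8.09, 12.4 and 19.5 CPM in WT chow, a rise of 1.02 ± 0.15 (edgeR adjusted p = 9.43e-07) without overlap. In all, 6 factors had no overlap between WT HFD and WT chow epididymal fat, against 25.4% of all genes tested. Fat cell markers moved with the factors that fell: 10 of 12 were lower and 2 higher, with a median log2 difference of -1.16, and they summed to 7855 to 13985 CPM in WT HFD, against 21402 to 37196 CPM in WT chow. Mesothelial markers were lower for 7 of 8, and markers of brown fat (6 of 8) and skeletal muscle (7 of 10) were higher. The part of these cell types was not tested. Macrophages, in which C/EBP-beta is also active, moved with diet: their markers summed to 6030 to 8422 CPM in WT HFD, against 1104 to 1831 CPM in WT chow, with 11 of 12 higher. With the macrophage score as a covariate, Cebpb was at -0.23 and 4 of the 10 factors were called. The macrophage sum does not overlap between the diets, so diet and macrophage content cannot be told apart there. Without WT HFD libraries 4 and 5, Cebpd was no longer called (-0.72, edgeR adjusted p = 0.0628) and the other 7 calls remained. Klf15 was called under every alternative run, at -1.43 to -2.26.

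In WT subcutaneous fat, HFD changed 4 of the 10 factors, against 44.1% of all genes (22.6% higher and 21.5% lower). Klf15 fell by 0.92 ± 0.16 (edgeR adjusted p = 3.02e-05), with 22.5, 28.0 and 44.3 CPM in WT HFD, against 37.1, 59.6 and 88.1 CPM in WT chow. Ebf2 fell by 0.89 ± 0.20 (edgeR adjusted p = 0.000785), with 8.89, 35.4 and 44.1 CPM in WT HFD, against 51.5, 60.0 and 78.5 CPM in WT chow, and no overlap. Zfp423 rose by 0.67 ± 0.18 (edgeR adjusted p = 0.00354) and Cebpb by 0.43 ± 0.18 (edgeR adjusted p = 0.0477). With WT HFD library 6 and KO HFD library 2 left out, Cebpb was at 0.30 and not called (edgeR adjusted p = 0.14), while Klf15 (-1.06), Ebf2 (-0.73) and Zfp423 (0.49) were. Endothelial markers were higher for 5 of 8 and macrophage markers for 3 of 12, and their part was not tested. Pparg, Cebpa, Rxra and Nr1h3 differed by -0.08 to 0.06 on the log2 scale. Under library totals the split was 1 higher and 2 lower, and the median of all genes moved by -0.18.

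In KO mice, the same diet left 0 of the 10 factors called in subcutaneous fat, against 20.7% of all genes. Rxra alone of the factors had an unadjusted p under 0.05, as did 4716 of all 14220 genes tested, and DESeq2 called no factor. Without KO HFD library 2 and WT HFD library 6, Rxra was called at -0.34 (edgeR adjusted p = 0.0194). Yet the CPM ranges of Cebpa, Rxra, Klf15 and Ebf2 did not overlap between KO HFD and KO chow, against 22.6% of all genes tested, and with library totals all 4 were called lower, Klf15 at -0.40, while the median of all genes moved by -0.26. The call for these 4 therefore turns on the scale. In KO epididymal fat 4 factors were called, against 38.7% of all genes (24.7% higher and 13.9% lower): Cebpb rose by 0.93 ± 0.15, Nr1h3 by 0.69 ± 0.17 and Zfp423 by 0.44 ± 0.15, and Ebf2 fell by 0.57 ± 0.20. Macrophage markers were higher for 8 of 12 there and lower for 1, with a median of 0.95 and a summed level of 1206 to 2791 CPM in KO HFD, against 807 to 1343 CPM in KO chow. With the macrophage score as a covariate all 4 calls were lost, with Cebpb at 0.36 (edgeR adjusted p = 0.375) and Zfp423 at -0.10, and Rxra was the 1 factor called, at -0.70 (edgeR adjusted p = 0.0361). The calls over all genes fell from 5814 to 1210 in that fit. The macrophage sum was itself higher on HFD, so diet and macrophage content are not cleanly separated there. Lymph node (8 of 13), brown fat (6 of 8) and skeletal muscle markers (8 of 10) were also higher and mesothelial markers lower (7 of 8), and their part was not tested. Under library totals 2 were higher and 5 lower, and the median of all genes moved by -0.23. Klf15 differed by -0.25 ± 0.13 on the log2 scale between KO HFD and KO chow epididymal fat (edgeR adjusted p = 0.142). On the scale of library totals its ranges did not overlap, with 42.9 to 53.2 CPM in KO HFD and 55.4 to 82.4 CPM in KO chow. The missing call for Klf15 is therefore not a sign of an unchanged level. The KO HFD against WT HFD and the diet comparisons share libraries and are not independent of each other.

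In mice with the mInhbe vector 1 of the 10 factors was lower in subcutaneous fat than with GFP, against 27.2% of all genes changed, 15.8% higher and 11.4% lower. Klf15 had 26.3, 52.3 and 80.0 CPM as lowest, median and highest mInhbe values, against 58.1, 72.0 and 149 CPM in GFP fat. All 10 mInhbe libraries were below the GFP mean and 6 were below every GFP library. The log2 difference was -0.75 ± 0.20 (edgeR adjusted p = 0.0095), and -0.58 without GFP library 2 (edgeR adjusted p = 0.0167). Cebpa (-0.51 ± 0.21, edgeR adjusted p = 0.0731) and Zfp423 (-0.42 ± 0.18, edgeR adjusted p = 0.0816) did not pass, and Pparg differed by -0.05 ± 0.08.

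Lymph node markers summed to 849 to 1709 CPM in mInhbe subcutaneous fat, against 616 to 1339 CPM in GFP fat, with 2 of 13 higher. With this score as a covariate Klf15 was at -0.47 (edgeR adjusted p = 0.26) and no factor was called. The fat cell markers summed to 17813 to 27679 CPM in mInhbe, against 22552 to 34497 CPM in GFP fat, with 8 of 12 lower, and the part of either in the Klf15 difference was not tested.

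In epididymal fat, mInhbe left 0 of the 10 factors called by edgeR, against 1.24% of all genes. Among the factors 5 had an unadjusted p under 0.05, as did 1666 of all 14850 genes tested, and DESeq2 called 1. Klf15 had 30.5, 40.9 and 58.1 CPM in mInhbe, against 41.0, 54.3 and 69.2 CPM in GFP fat, a log2 difference of -0.39 ± 0.12 (edgeR adjusted p = 0.147). Ebf2 had 16.3, 27.3 and 54.8 CPM in mInhbe, against 26.8, 44.1 and 84.9 CPM in GFP fat, a log2 difference of -0.71 ± 0.20 (edgeR adjusted p = 0.114). Its groups overlapped. The other 3 were Ebf1 (-0.46 ± 0.16), Pparg (-0.31 ± 0.13) and Zfp423 (0.27 ± 0.12). The difference between depots in the mInhbe effect was called for Ebf2 (-0.80 ± 0.23, edgeR adjusted p = 0.0214) and Zfp423 (0.67 ± 0.22, edgeR adjusted p = 0.0346), against 13.7% of all genes, but for neither with the replicate block or when 3 GFP libraries, subcutaneous 2 and epididymal 7 and 8, were left out.

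The ratio of Klf15 to Pparg counts within a library does not depend on the library scale. It was 0.331 ± 0.0368 in KO HFD and 0.165 ± 0.0309 in WT HFD epididymal fat (SD, n = 8 each), with a 2-sided exact permutation p of 0.000155, the smallest this design gives (adjusted over 10 comparisons, 0.000777). In subcutaneous fat it was 0.357 ± 0.0366 in KO HFD (n = 8) and 0.185 ± 0.0928 in WT HFD (n = 7; exact permutation p = 0.00249, adjusted 0.00622). These WT HFD ratios were also lower than those of WT chow, which were 0.317 ± 0.0966 in epididymal fat (n = 8; exact permutation p = 0.000155) and 0.356 ± 0.0894 in subcutaneous fat (n = 8; exact permutation p = 0.00249). With mInhbe the subcutaneous ratio was 0.319 ± 0.105, against 0.522 ± 0.256 with GFP (n = 10 each; permutation p = 0.0141, adjusted 0.0282). The GFP ratios had a median of 0.452 and reached 1.12 in library 2, and the test was not run without that library. In mInhbe epididymal fat it was 0.306 ± 0.0633, against 0.323 ± 0.0765 with GFP, which differed by less than the spread between libraries (permutation p = 0.604). Klf15 and Pparg thus changed unequally in the 5 comparisons that passed. This was the only pair of factors whose ratio was tested. Klf15 had already given the largest differences between KO and WT on HFD in the same libraries. The adjustment over 10 comparisons does not cover the choice of the pair. The permutation tests used log2 ratios, while the means given are of the ratios themselves.

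**Figure D4:**
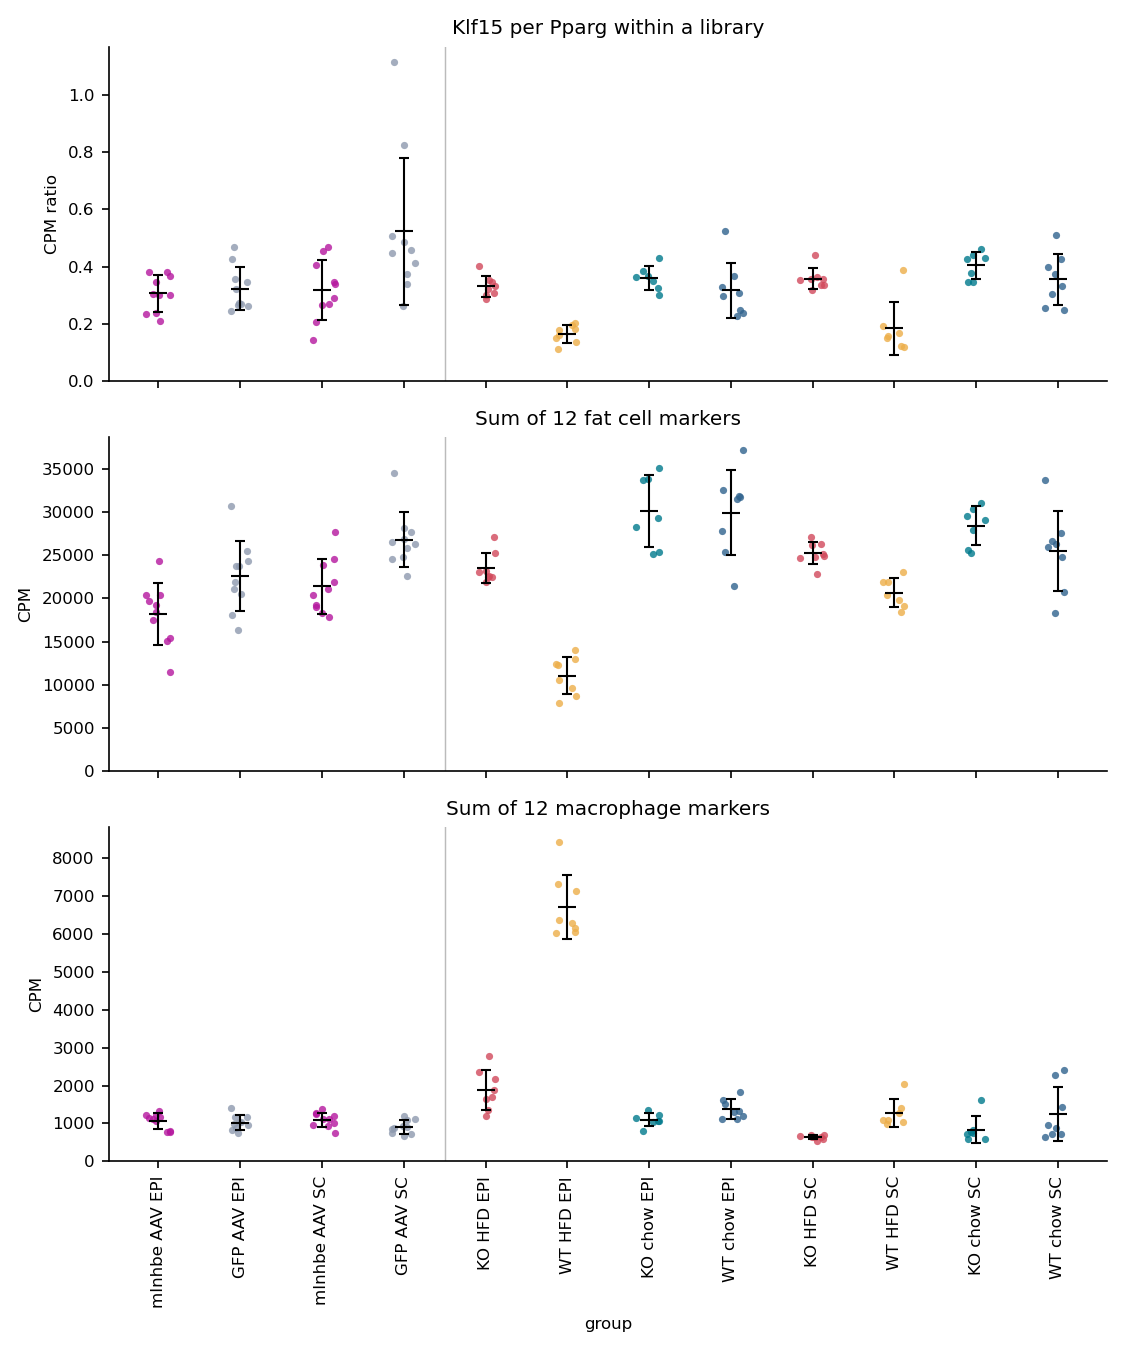
Ratio of Klf15 to Pparg counts and the summed CPM of fat cell and macrophage markers, in every library of both experiments. EPI is epididymal and SC subcutaneous, each point is 1 library and the bars give the group mean ± SD. The WT HFD EPI libraries have the lowest mean ratio, with 0.112 to 0.202, and the highest macrophage sums, 6030 to 8422 CPM.

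The depots differed in several of the factors in mice carrying a vector. With mInhbe, 6 of the 10 were lower in epididymal than in subcutaneous fat and none was higher, against 64.7% of all genes changed (36.1% higher and 28.6% lower). With GFP it was also 6 lower and none higher, again against 64.7% (37% higher and 27.7% lower). Cebpa was lower in epididymal fat in both, by 0.74 ± 0.18 with mInhbe and 0.96 ± 0.18 with GFP, as were Nr1h3, by 0.57 ± 0.14 and 0.89 ± 0.14, and Cebpb. Ebf2, Ebf1 and Pparg were the others with mInhbe, and Klf15, Rxra and Zfp423 the others with GFP. In chow-fed mice without vector Cebpb was the 1 factor called, by -0.51 ± 0.17 in KO mice and -0.67 ± 0.16 in WT mice. The background was 36% of all genes in KO chow (21% higher and 15% lower) and 43.1% in WT chow (24.5% higher and 18.7% lower).

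On HFD fewer factors were called between depots in KO than in WT mice, with 3 of 10 factors in KO, against 41.8% of all genes (22.5% higher and 19.3% lower), and 6 of 10 in WT, against 40.8% (21.8% higher and 18.9% lower). In WT HFD mice Ebf1 (-0.97 ± 0.19), Klf15 (-0.71 ± 0.15), Cebpa (-0.66 ± 0.16), Zfp423 (-0.65 ± 0.16), Pparg (-0.63 ± 0.15) and Rxra (-0.52 ± 0.14) were lower in epididymal fat. In KO HFD mice Ebf1 (-0.89 ± 0.19) and Klf15 (-0.41 ± 0.14) were lower and Nr1h3 (0.39 ± 0.13) was higher. The test of the difference itself, the KO by depot interaction on HFD, called Rxra only (0.60 ± 0.19, edgeR adjusted p = 0.0268), against 14.6% of all genes, and lost it with the replicate block (edgeR adjusted p = 0.072). Rxra stood out in WT HFD subcutaneous library 6, at 323 CPM, against at most 197 CPM in the rest of its group. It also did in KO HFD epididymal library 4, at 226 CPM, against at most 164 CPM. Both libraries raise this term, and no fit of it without them was run. On chow no factor was called for this term and 0% of all genes were. No factor had an unadjusted p under 0.05 there, 311 genes did, and DESeq2 called 19 genes.

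Of 25 genes that PPAR-gamma is known to activate, 18 rose and none fell in KO HFD against WT HFD epididymal fat, where 37.2% of all genes changed, with a median log2 difference of 0.88, against 0.01 over all genes. Adipoq, Plin1, Cidec, Lipe and Gpd1 are also among the fat cell markers, and Cidea and Ucp1 among the brown fat markers. The fat cell markers summed to 21937 to 27068 CPM in KO HFD, against 7855 to 13985 CPM in WT HFD. The target count is thus not separate from the marker shift, and the part of cell content was not tested. Slc2a4, the insulin-responsive glucose transporter, had 211 ± 42.9 CPM in KO HFD and 44.9 ± 11.2 CPM in WT HFD (edgeR adjusted p = 4.1e-12). The lipid droplet gene Cidea rose by 3.14 ± 0.27 and Agpat2, an enzyme of triglyceride synthesis, by 1.22 ± 0.16. In KO HFD subcutaneous fat 4 of the targets rose and 1 fell, a share close to the 18.9% of all genes. Slc2a4 rose by 1.15 ± 0.18 there, and the median was 0.11. On chow, 1 target rose in KO subcutaneous fat and 2 in KO epididymal fat, with Fabp5 in both, against 0.253% and 0.658% of all genes.

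With mInhbe, 8 of 25 targets fell and 1 rose in subcutaneous fat (median -0.37), against 27.2% of all genes changed, including Fabp4, the fatty acid carrier, at 7409 ± 999 CPM with mInhbe and 9941 ± 950 CPM with GFP. In epididymal fat the median was -0.14, and the target with the smallest p, Slc2a4, was at -0.53 ± 0.14 (edgeR adjusted p = 0.0855). HFD in WT mice moved 7 targets up and 11 down in epididymal fat (median -0.16), against 54.1% of all genes changed. In subcutaneous fat it moved 10 up and 4 down (median 0.22), against 44.1% of all genes. Fabp5 rose by 2.60 ± 0.16 and Pck1, the key enzyme of glyceroneogenesis, fell by 2.89 ± 0.21 in WT HFD epididymal fat.

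Cofactors of PPAR-gamma split. In KO HFD epididymal fat 5 of 16 rose and 2 fell (median 0.07), against 37.2% of all genes changed, with Ppargc1b at 0.95 ± 0.13, Lpin1 at 0.92 ± 0.13 and the coactivator Ncoa3 at -0.51 ± 0.07. In KO HFD subcutaneous fat 3 rose and none fell, a share close to the 18.9% of all genes. The 3 included Ppargc1a, the coactivator of mitochondrial genes, with 14.7 ± 3.36 CPM in KO HFD and 6.36 ± 2.37 CPM in WT HFD. Ppargc1a was also the 1 cofactor of 16 called with mInhbe in epididymal fat, at -1.10 ± 0.26 (edgeR adjusted p = 0.036), against 1.24% of all genes. GFP epididymal library 8 carried brown fat transcripts, with Ucp1 at 787 CPM. Its brown fat markers, a list that includes Ppargc1a, summed to 1435 CPM, against a group median of 21.4 CPM. The Ppargc1a difference without this library is not given here. In mInhbe subcutaneous fat 5 cofactors rose and 1 fell, against 27.2% of all genes changed. HFD lowered 9 and raised 2 of 16 in WT epididymal fat, against 54.1% of all genes changed. In WT subcutaneous fat it lowered 7 and raised none, a share of changed genes close to the 44.1% of all genes.

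Of 18 other factors that promote fat cell formation, 7 rose and 2 fell in KO HFD epididymal fat (median 0.28), against 37.2% of all genes changed. The 7 included the lipogenic regulators Srebf1 at 0.81 ± 0.15 and Mlxipl at 0.68 ± 0.12. In KO HFD subcutaneous fat 4 rose and 2 fell, against 18.9% of all genes, with Bcl6 at 1.45 ± 0.28 and the early inducers Egr2 at -0.80 ± 0.18 and Klf4 at -0.74 ± 0.17. HFD lowered 9 of these 18 and raised 1, Egr2, in WT epididymal fat, a share close to the 54.1% of all genes that changed. Of 16 factors that restrain the process, 1 rose and none fell in KO HFD epididymal fat, Foxo1 at 0.53 ± 0.12, and 3 fell and none rose in KO HFD subcutaneous fat, Gata2, Hes1 and Klf2, against 37.2% of all genes changed in the epididymal and 18.9% in the subcutaneous comparison. In KO fat on chow the nearest to the threshold of these 18 were Bcl6 in subcutaneous fat, at 0.53 ± 0.27 (edgeR adjusted p = 0.788), and Egr2 in epididymal fat, at 1.54 ± 0.49 (edgeR adjusted p = 0.23).

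Among relatives from the same gene families, Rxrg at 1.11 ± 0.18 and Ppara at 1.10 ± 0.21 rose with KO in HFD epididymal fat, where 2 of 20 rose and 4 fell. This was a smaller share than the 37.2% of all genes that changed, 17% higher and 20.2% lower. Klf14, a relative of Klf15, fell in KO fat in all 4 comparisons of genotype. It had 0.534 ± 0.481 CPM in KO HFD and 12.9 ± 4.67 CPM in WT HFD subcutaneous fat, a log2 difference of -4.42 ± 0.40 opposite in sign to that of Klf15. With mInhbe in epididymal fat Klf14 was the 1 of 20 relatives called, with 10.4 ± 4.37 CPM, against 2.89 ± 0.992 CPM with GFP. Of all genes tested there, 1.24% were called.

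The genes whose pattern was most like that of 2 core factors were taken over the 8 group means of the KO experiment, among 13777 genes, as a description. Those nearest to Pparg by Pearson r were Tmeff1 (0.993), Cdk5rap1 (0.960), Tada2b (0.960), Hk2 (0.959) and Plpp6 (0.959). Those nearest to Cebpa were C030006K11Rik (0.995), Brpf3 (0.978), 2300009A05Rik (0.977), Ppox (0.974) and Ces1f (0.972). Klf15, added after its values were seen, was nearest to Ivd (0.988), an enzyme of leucine breakdown, and to Mat2a (0.982) and Mlxipl (0.980). Between the factors themselves r was 0.911 for Pparg and Cebpa, 0.933 for Cebpa and Klf15, and 0.828 for Pparg and Klf15. The 8 means share their libraries and scaling factors.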

How the data were processed

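The authors deposited estimated counts per gene, 1 table for each experiment, with mm10 as the genome build per the submitters' processing notes. No aligner or counter is named there. Libraries were made from total RNA with the KAPA mRNA HyperPrep kit and adapters that carry molecular identifiers, and sequenced in pairs on a NovaSeq, per the labels' protocols. Whether counting used these identifiers is not given in the sources used here. Of the deposited count values 2.94% were not whole (tolerance 1e-06), and all were rounded. The tables give Entrez identifiers, and RefSeq's gene table (GRCm38.p6) named 24375 of 24475.

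Libraries were grouped by their labels. Differences were fitted with edgeR 4.0.16 (R 4.3.3; quasi-likelihood, robust, TMM, filterByExpr with a minimum count of 10 and a total of 15), per depot with all groups, or over both depots for depot contrasts, and p-values were adjusted by Benjamini-Hochberg over all genes tested, 13990 to 15480 per fit. All 10 members passed the filter in every fit. The script was tested on simulated data. CPM values use the library total, and the per-kilobase levels GENCODE exon lengths. Ratios were tested with exact permutation (100000 resamples for n = 10), 2-sided. Intervals were not computed, and 3 counts served as the detection floor, which covers counting error only.

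Members and lists were chosen with earlier results of these data known. Genes named were the 10 members, of each list up to 3 called genes with the smallest p per comparison (otherwise the gene with the smallest p), the 5 genes most like Pparg and the 5 most like Cebpa by Pearson r over group means of log2 CPM (prior count 2, at least 1 CPM), and Inhbe. The alternatives were RLE scaling, library totals, DESeq2 1.42.0, no filter, the replicate block, marker scores as covariates and left-out libraries. Replicates are biological according to the sample titles.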

Additional observations from a re-analysis of the deposited data

Results flagged for a closer look

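Of the 120 gene and group combinations with 7 to 10 libraries, 24 had a highest or lowest library whose gap to the next was large relative to the range of the group. Chance flags about 1 in 20 such groups. Several of these flags came from the same library.

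KO HFD epididymal library 4 was the lowest of its group in Pparg, at 110 CPM, and the highest in Cebpa, at 727 CPM, in Rxra, at 226 CPM, and in Nr1h3, at 135 CPM. WT HFD epididymal library 3 was the lowest of its group in Ebf1, at 50.5 CPM, and in Ebf2, at 19.7 CPM. WT HFD subcutaneous library 6 was the highest in Rxra, at 323 CPM, and in Nr1h3, at 77.8 CPM, and the lowest in Ebf1, at 54.5 CPM. KO HFD subcutaneous library 5 was the lowest of a narrow group in Klf15, at 54.4 CPM.

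Among the libraries from mice with a vector, mInhbe subcutaneous library 4 was the highest in Cebpd, at 46.6 CPM, in Nr1h3, at 113 CPM, and in Zfp423, at 60.2 CPM. GFP subcutaneous library 2 was the highest in Cebpa, at 1752 CPM, in Cebpb, at 63.8 CPM, in Cebpd, at 62.8 CPM, and in Rxra, at 491 CPM. GFP subcutaneous library 9 was the highest in Pparg, at 220.4 CPM. In mInhbe epididymal fat, library 9 was the highest in Cebpb, at 45.0 CPM, and in Cebpd, at 72.3 CPM, and library 10 in Ebf2, at 54.8 CPM. In GFP epididymal fat, library 7 was the highest in Pparg, at 244 CPM, and in Ebf2, at 84.9 CPM, and library 8 in Cebpb, at 49.3 CPM. The causes were not tested.

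Effects that differed between conditions by the test of the difference itself were those of genotype between HFD and chow for epididymal Klf15 (log2 difference 1.18), of mInhbe between epididymal and subcutaneous fat for Ebf2 (-0.80) and Zfp423 (0.67), and of genotype on HFD between the depots for Rxra (0.60). The Rxra term includes WT HFD subcutaneous library 6 and KO HFD epididymal library 4, flagged above, and was not fitted without them.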

How the results depend on the processing

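Epididymal is written EPI and subcutaneous SC here. The tests called 51 gene results. Over their 372 alternatives, 335 kept direction and call, 35 lost the call and 2 changed sign, and 33 of the 51 were kept in every alternative run. Klf15 in KO against WT on HFD stayed called throughout, at 1.29 to 2.08 in epididymal and 0.81 to 1.27 in subcutaneous fat. The macrophage sums do not overlap between KO HFD and WT HFD in either depot. The fit with that score therefore cannot separate genotype from macrophage content. The macrophage score as a covariate gave -0.23 for Cebpb with HFD in WT epididymal fat, -0.10 for Zfp423 with HFD in KO epididymal fat and -0.061 for the uncalled Cebpa in KO HFD subcutaneous fat. The alternatives chosen after seeing the data were the macrophage score, library totals as the scale, and the fits without WT HFD EPI 4 and 5, without KO HFD EPI 4 and WT HFD EPI 3, and without WT chow SC 6 and 7 and KO chow SC 5.

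The counts of factors called that moved by over 1.5 times were these. With mInhbe in SC it was 2 with the replicate block and 0 with the lymph node score, and in EPI 1 with DESeq2. For KO on HFD in SC it was 3 with DESeq2 and with library totals, and 2 with the replicate block, the lymph node score, the macrophage score, without libraries low in lymph node transcripts, without those with liver transcripts and without WT chow SC 6 and 7 and KO chow SC 5. For KO on HFD in EPI, 6 in the reported fit, it was 3 with library totals. It also came to 4 without WT HFD EPI 4 and 5 and to 5 with the macrophage score and with no filter. For HFD in WT EPI it was 4 with the macrophage score. For HFD in KO SC it was 4 with library totals, and 1 with the macrophage score and without libraries with liver transcripts. For HFD in KO EPI it was 7 with DESeq2 and with library totals, and 1 with the macrophage score. The genotype by diet count in SC was 1 with DESeq2, library totals, without liver transcripts and without the 3 chow libraries, and in EPI 2 with DESeq2 and 5 with the macrophage score. The mInhbe by depot count was 0 with the replicate block and without GFP SC 2, GFP EPI 7 and 8, and 1 with library totals. The KO on HFD by depot count was 3 with DESeq2. The cause was not tested.

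Levels scaled by TMM instead of the library total moved by over 1 SD in KO HFD SC for Pparg (195 CPM), Cebpa (576 CPM), Rxra (153 CPM), Nr1h3 (72.3 CPM), Klf15 (69.2 CPM), Ebf1 (268 CPM), Ebf2 (45.6 CPM) and Zfp423 (52.2 CPM), and in KO HFD EPI for Klf15 (51.9 CPM).

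Counts over all genes moved by over 1.5 times for mInhbe SC (3801, 336 with the lymph node score), mInhbe EPI (184, 314 with DESeq2 and 83 with the block), KO chow SC (36, between 21 and 114), KO chow EPI (99, up to 207), KO HFD SC (2688, 1654 with the macrophage score), KO HFD EPI (5590, 2989), HFD in WT EPI (8139, 1270), HFD in KO EPI (5814, 1210), HFD in KO SC (2948, 5253 with library totals), genotype by diet SC (304, up to 642), mInhbe by depot (2110, 4 with the block) and KO chow by depot (0, 19 with DESeq2). With library totals the share of called genes that were higher was 78.4% for mInhbe SC (58.0% with TMM), 12.7% for KO HFD SC (38.7%), 23.5% for KO HFD EPI (45.8%), 30.2% for HFD in WT SC (51.2%), 14.0% for HFD in KO SC (56.3%), 29.1% for HFD in KO EPI (63.9%), 70.0% for EPI against SC in KO HFD (53.8%) and 65.3% in WT HFD (53.6%), 26.8% for genotype by diet EPI (47.4%) and 12.0% for mInhbe by depot (28.3%).

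Whether replicate numbers pair libraries was not settled: in 0 of 20 pairs of groups did all same-numbered libraries correlate above 0.1 (158 library pairs, r between -0.57 and 0.71). Libraries with different numbers were not compared, so these values cannot show whether the depots share animals. The block results above stand as alternatives only.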

Other observations

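The ratio of Cebpa to Ebf1 counts within a library singled out a few libraries. Its group medians lay between 1.86 and 4.74. WT HFD subcutaneous library 6 had 14.4, against a median of 1.86 in its group, KO HFD epididymal library 4 had 14.1, against a median of 3.24, and GFP subcutaneous library 2 had 14.0, against a median of 4.74. The highest ratio was 8.22 in mInhbe subcutaneous fat and 6.78 in WT HFD epididymal fat, and at most 4.93 in the other groups. These libraries were noticed after their values were seen, and the cause was not tested.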
